A study of Mus musculus with 6 samples.

Results

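Collagen chains were followed across 3 conditioned media in cultured mouse fibroblastic reticular cells (FRCs), a line of the fibroblasts that make and ensheath the fibre network of lymph nodes. The family was chosen with earlier results of these data known, and its members were then set by symbol alone. Every row of the unfiltered count table named Col, a number, the letter a and a number was taken, which gave 44 chains among 55367 symbols. Poly(A) RNA was sequenced after 96 h, with the medium renewed every 48 h. In the first group the cells received medium conditioned by 4T1 cells, in the second medium conditioned by 67NR cells, both mouse mammary tumour lines, and in the control group medium conditioned by the FRC line itself. Each group held 2 libraries. Conditioning took 24 h in plain RPMI, and all media then carried 2% fetal bovine serum and antibiotics, so the control cells were also in conditioned, low-serum medium, and no group in unconditioned medium was among the samples. All libraries came from 1 cell line, and its genotype and strain are not given in the labels. Whether both libraries of a medium stem from separate cultures is not stated in the labels, so the p-values measure the spread between these libraries, which may be technical.

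Collagens are secreted proteins in which 3 chains wind into a triple helix, and each type needs its own chain or set of chains. Fibrillar collagens such as types I and III form the banded fibres of connective tissue, and type III is a main component of the reticular fibres of lymph nodes. Network collagens such as type IV form the sheet of basement membranes, which in lymph nodes lines the fibre core inside the FRC sheath. FACITs are fibril-associated collagens with interrupted triple helices that decorate fibrils, and type VI forms beaded filaments around cells. Of the 44 chains, 11 were fibrillar, 9 network, 9 FACIT and 6 beaded filament chains. The others were the anchoring fibril chain Col7a1, 4 transmembrane chains, 2 multiplexins and 2 further chains, Col26a1 and Col28a1.

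Library totals were 14.5 and 18.2 M counts (M, 1e6) in 4T1 medium, 21.8 and 20.9 M in 67NR medium and 19.3 and 13.6 M in control medium. Levels are given as counts per 1e6 (CPM), scaled by edgeR, and 1 count stood for 0.0463 to 0.0743 CPM. Libraries of 1 medium correlated at 0.992 or more across genes, and those of different media at 0.979 or less. Of 13 FRC markers 6 were tested, and 3 were higher and 2 lower in 4T1 than in control medium by the edgeR test used for the chains. Of all genes tested, 39.1% were called there (19.9% higher, 19.2% lower). In 67NR against control medium 2 of the 6 were higher and 1 lower, where 27.6% of all genes were called. The growth factor receptor gene Pdgfra averaged 128 ± 21.9 CPM in 4T1 medium and 33.7 ± 1.005 CPM in control medium, and the adhesion molecule gene Vcam1 627 ± 27.3 CPM in 4T1 medium and 206 ± 7.98 CPM in control medium (SD, n = 2 each). Pdgfrb was 1.70-fold lower in 4T1 than in control medium, and the podoplanin gene Pdpn, at 97.1 to 129.8 CPM over all libraries, 1.18-fold lower. The part of these changes in the collagen results was not tested. Thy1, Cxcl13, Ccl19 and Ccl21a had no count in any library, so defining chemokines of lymph node FRCs were absent. Ccl21a has near-identical copies, among which its reads could have been split. The summed level of 5 leukocyte genes was 0.415 to 1.28 CPM per library, and Ptprc, which defines leukocytes, had 1 count in all. That of 6 endothelial genes was 0.946 and 0.654 CPM in 4T1 medium, 3.15 and 2.73 CPM in 67NR medium and 1.45 and 2.53 CPM in control medium, with Prox1 at 0 in all libraries. That of 5 pericyte and muscle genes was 1.83 and 1.58 CPM in 4T1 medium, 6.02 and 5.50 CPM in 67NR medium and 2.80 and 3.34 CPM in control medium. Like the summed collagen chains, both sums were lowest in the 4T1 and highest in the 67NR libraries. The smooth muscle gene Myh11, with 8 and 6 counts in 4T1 medium and 22 and 30 in control medium, was called lower in 4T1 medium. The endothelial gene Kdr had 1 and 0 counts in 4T1 medium, 32 and 28 in 67NR medium and 16 and 22 in control medium. Kdr passed the filter on low counts only through the 67NR and control libraries, so no call is given for it. The summed level of 10 epithelial genes was 2.30 and 1.74 CPM in 4T1 medium, 6.16 and 5.89 CPM in 67NR medium and 8.98 and 7.65 CPM in control medium, with Epcam, Esrp1 and Cldn3 at 0 in all libraries. Krt19 made up most of each sum and was 4.34-fold lower in 4T1 than in control medium (adjusted p 6.98e-06, edgeR). Cdh1 had 6 and 1 counts in 4T1 medium, 28 and 22 in 67NR medium and 31 and 17 in control medium. The part of these 3 marker lists in the collagen results was not tested. In 4T1 medium 6 of 9 RNA quality genes were higher than in control medium, and in 67NR medium 7 of 9 were higher, where 19.9% and 13% of all genes tested were. Their summed level was 17310 and 19507 CPM in 4T1 medium, 16013 and 18785 CPM in 67NR medium and 10247 and 14679 CPM in control medium, and their part in the collagen results was not tested. In bulk RNA a lower level per cell and a smaller share of expressing cells cannot be told apart.

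Most collagen RNA came from 2 chains, Col1a1 and Col3a1, which held 64.1 to 67.2% of the collagen counts of a library. At least 1 count was found for 40 of the 44 chains, and Col13a1, Col19a1, Col22a1 and Col25a1 had none in any library. A total of 32 chains passed the filter on low counts and were tested, and 22 of them averaged at least 5 CPM over the 6 libraries. Only 25 of the 32 reached the filter's 0.534 CPM in every library. The other 7 (Col4a4, Col8a2, Col9a3, Col6a4, Col6a5, Col17a1 and Col28a1) passed through the libraries in which they were higher, so counts over the 32 are a description. The 12 untested chains held at most 32 counts each over all libraries, the highest being the transmembrane chain Col23a1. All chains together made up 2.43 and 2.49% of the counts in 4T1 medium, 4.01 and 3.84% in 67NR medium and 3.36 and 3.19% in control medium. The share was thus lowest in both 4T1 libraries and highest in both 67NR libraries, with no overlap between media. A sum over chains was given no test, and 2 against 2 libraries cannot reach an exact two-sided permutation p below 0.333.

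**Figure D1:**
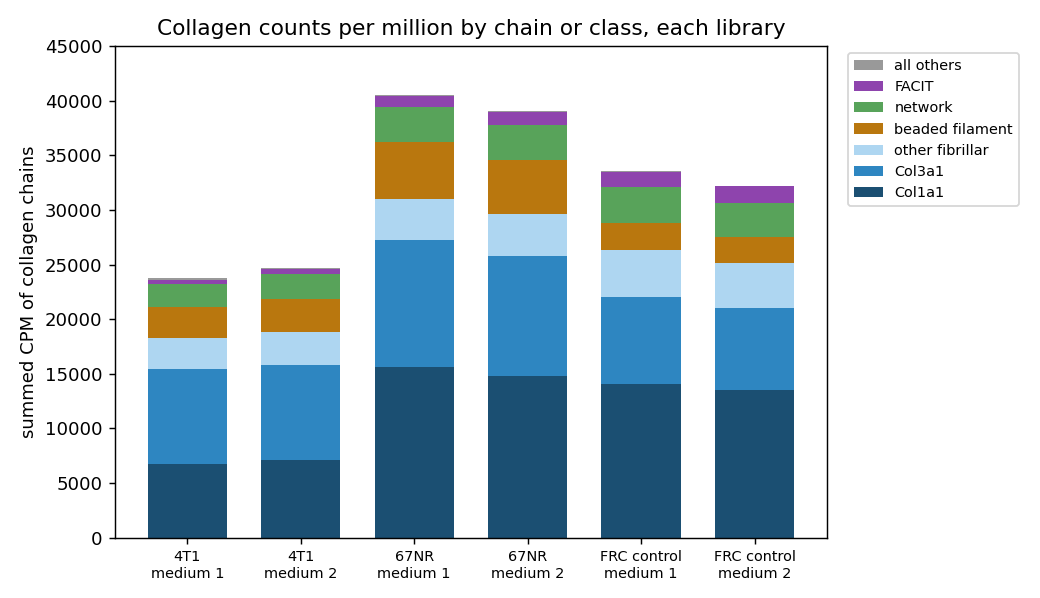
Summed CPM of the collagen chains in each of the 6 libraries (y axis, linear, from 0), stacked by chain or class (colours). The bars reach 23730 and 24714 CPM in 4T1 medium, 40510 and 39007 CPM in 67NR medium and 33553 and 32216 CPM in control medium, and Col1a1 and Col3a1 make up most of every bar.

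Set against the control libraries, 7 tested chains were higher and 18 lower in 4T1 medium, or 78.1% called, where 39.1% of all 15055 genes tested were called (19.9% higher, 19.2% lower). In 67NR medium 11 chains were higher and 8 lower than in control medium, or 59.4% called against 27.6% of all genes (13% higher, 14.6% lower). Between the tumour media, 4 chains were higher and 19 lower in 4T1 than in 67NR medium, or 71.9% called against 43.4% of all genes (23.5% higher, 19.9% lower). A call is an adjusted p under 0.05 in edgeR's quasi-likelihood test, fitted to all genes and libraries, with Benjamini-Hochberg adjustment. The first and second comparison share the control libraries. Among the 22 chains of at least 5 CPM, 5 were higher and 14 lower in 4T1 against control medium (median log2 fold change -0.51), 9 were higher and 8 lower in 67NR against control medium (median 0.14), and 3 were higher and 14 lower in 4T1 against 67NR medium (median -0.45). Of the 11281 genes at that level, 43.8%, 32.2% and 49.3% were called in these 3 comparisons, with medians of 0.01, -0.01 and 0.03. In both comparisons with control medium, fewer chains were called whenever 1 of the libraries compared was left out. The losses included lower chains in 67NR medium, and in 4T1 medium they were largest without the first control library. Such fits leave 1 library in a group, and fewer of all genes were called in them as well. Whether the losses lie with particular libraries was not tested.

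**Figure D2:**
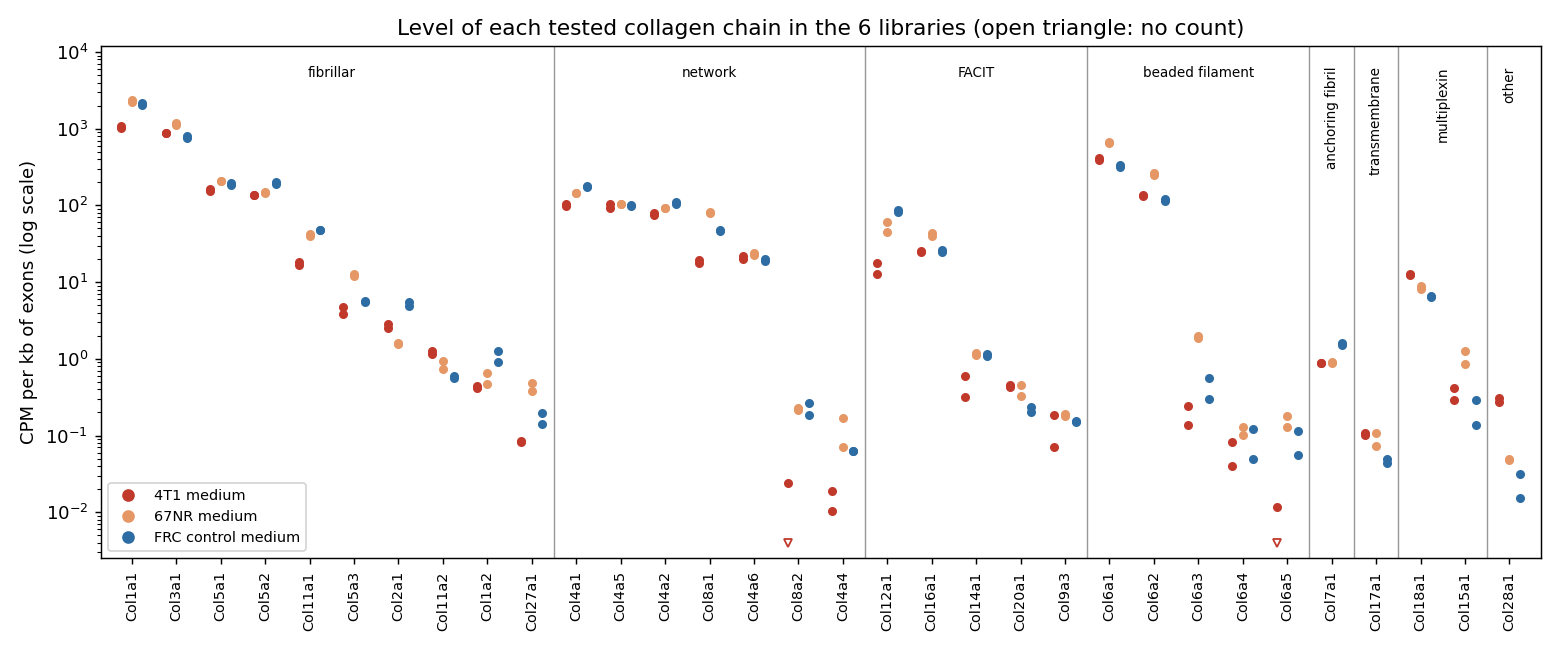
Level of the 32 tested chains in CPM per kb of annotated exons (y axis, log scale), by class and from high to low within a class, with 1 point per library and colours for the media. Col1a1 and Col3a1 lead the fibrillar chains, whereas Col1a2 and Col6a3 sit near or below 1 CPM per kb in most libraries, and open triangles mark libraries with no count of Col8a2 or Col6a5.

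Some chains were counted far below the chains with which they are known to form a trimer, and the upstream sequences of 3 of these and 3 abundant chains are shown for reference. Type I collagen is classically a heterotrimer of Col1a1 and Col1a2, type VI is built from Col6a1, Col6a2 and a further chain, usually Col6a3, and type VIII holds Col8a1 and Col8a2, which can also form homotrimers. The sequences come from the RefSeq promoter table for GRCm38.p6 and cover the bases upstream of the RefSeq start, 5′ to 3′, without annotated exons. They are chr6:4505370-4505492 (+ strand) for Col1a2, chr1:90843972-90844221 (- strand) for Col6a3, chr4:126286544-126286792 (+ strand) for Col8a2, chr1:45311288-45311537 (+ strand) for Col3a1, chr10:76623631-76623880 (- strand) for Col6a2 and chr16:57754738-57754987 (- strand) for Col8a1. Capitals mark matches to the GC box, searched as GGGCGG on both strands, and in Col3a1 a match to the TATA box, and overlapping matches run together.
Col1a2: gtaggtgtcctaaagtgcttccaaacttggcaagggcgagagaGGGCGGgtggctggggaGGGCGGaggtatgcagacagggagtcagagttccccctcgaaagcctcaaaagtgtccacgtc
Col6a3: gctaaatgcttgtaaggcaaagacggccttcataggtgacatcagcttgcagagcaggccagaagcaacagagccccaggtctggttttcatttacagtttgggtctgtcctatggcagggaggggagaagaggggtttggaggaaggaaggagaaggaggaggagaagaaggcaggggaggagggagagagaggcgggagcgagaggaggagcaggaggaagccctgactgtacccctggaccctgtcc
Col8a2: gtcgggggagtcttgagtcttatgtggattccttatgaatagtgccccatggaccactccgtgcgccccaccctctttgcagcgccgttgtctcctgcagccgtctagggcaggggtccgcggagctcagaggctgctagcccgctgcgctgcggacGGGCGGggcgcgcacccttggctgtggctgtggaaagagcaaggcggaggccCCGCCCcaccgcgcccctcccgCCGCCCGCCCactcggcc
Col3a1: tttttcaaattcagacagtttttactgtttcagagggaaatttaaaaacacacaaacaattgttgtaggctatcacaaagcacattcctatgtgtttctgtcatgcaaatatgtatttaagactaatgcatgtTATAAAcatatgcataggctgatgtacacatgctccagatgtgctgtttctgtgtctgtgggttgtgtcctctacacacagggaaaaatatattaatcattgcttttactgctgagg
Col6a2: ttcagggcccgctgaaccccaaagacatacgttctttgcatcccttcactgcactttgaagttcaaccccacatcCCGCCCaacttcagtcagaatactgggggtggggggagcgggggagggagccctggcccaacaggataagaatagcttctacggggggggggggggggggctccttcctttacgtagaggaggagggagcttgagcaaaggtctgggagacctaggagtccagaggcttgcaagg
Col8a1: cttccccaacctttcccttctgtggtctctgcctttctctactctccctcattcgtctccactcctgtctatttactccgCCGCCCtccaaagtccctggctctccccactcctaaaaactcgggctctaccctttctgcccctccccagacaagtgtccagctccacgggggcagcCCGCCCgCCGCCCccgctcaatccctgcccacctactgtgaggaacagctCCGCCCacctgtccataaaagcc
The 3 motifs searched on both strands over 250 upstream bases were the GC box, the CCAAT box (searched by these letters) and the TATA box, for which the letters TATAAA were used. The Col3a1 window held 1 TATA box, the Col8a1 window 4 GC boxes, the Col8a2 window 4 GC boxes of which 2 overlap, and the Col6a2 window shown 1 GC box. The Col1a2 window held 2 GC boxes, 205 and 188 bases upstream, and a CCAAT box 109 bases upstream that lies outside the stretch printed. In the GENCODE M21 annotation Col1a2 starts further upstream, at chr6:4504814, so its window and the stretch printed lie inside the annotated gene. The Col6a3 window held none of the 3 motifs. Windows were found for 35 of the 44 chains, 38 windows in all. A GC box was in 22 of these 38 (57.9%) and in 32.7% of all 32851 windows, a CCAAT box in 34.2% of the collagen windows and 33.9% of all, and a TATA box in 13.2% of the collagen windows and 12.4% of all. The collagen windows had a median GC content of 59.0% and all windows 52.4%, and these matches are a description of letters, not of bound sites. Col1a1 is named only.

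Col1a2 (chr6:4504814-4541544, + strand, GRCm38, 48 exon blocks) had 77 and 100 counts in 4T1 medium, 174 and 120 in 67NR medium and 216 and 211 in control medium. Per kb of exons, the ratio of Col1a2 to Col1a1 was 0.000409 and 0.000405 in 4T1 medium, 0.000273 and 0.000208 in 67NR medium and 0.000420 and 0.000612 in control medium. Col1a1 thus stood 1634 to 4807 times above its partner in every library. With the longest transcript in place of all exons the span was 778 to 2290 times, so the gap does not turn on the length used. Between media Col1a2 stood at 5.20 and 5.45 CPM in 4T1 medium, 8.06 and 5.84 CPM in 67NR medium and 11.2 and 15.7 CPM in control medium. It was 2.48-fold lower in 4T1 than in control medium (log2 fold change -1.31 ± 0.20, adjusted p 0.000167 by edgeR's quasi-likelihood test) and lower in 67NR than in control medium (-0.93 ± 0.18, adjusted p 0.00217), while 4T1 against 67NR medium did not pass (-0.38 ± 0.21, adjusted p 0.156). Both control libraries lay above the other 4. No other symbol of the table has exons that overlap those of Col1a2 in GENCODE M21.

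Col6a3 (chr1:90765923-90843971, - strand, 45 exon blocks) had 24 and 53 counts in 4T1 medium, 480 and 484 in 67NR medium and 128 and 48 in control medium. Its ratio to Col6a1 per kb was 0.000346 and 0.000580 in 4T1 medium, 0.00275 and 0.00304 in 67NR medium and 0.00165 and 0.000937 in control medium. Col6a1 thus stood at least 328 times above it in every library, and at least 296 times with the longest transcript as the length. No other symbol's exons overlap those of Col6a3 either. Col6a3 nonetheless had the largest separation between the tumour media among the chains of at least 5 CPM, at 1.62 and 2.89 CPM in 4T1 medium and 22.2 and 23.6 CPM in 67NR medium, against 6.65 and 3.57 CPM in control medium. It was higher in 67NR than in control medium (log2 fold change 2.11 ± 0.20, adjusted p 7.02e-06) and lower in 4T1 than in 67NR medium (-3.30 ± 0.24, adjusted p 1.65e-07), both by edgeR's quasi-likelihood test. The fall in 4T1 against control medium (-1.19 ± 0.30, adjusted p 0.00630) rested on the first control library, without which it was -0.64 with an adjusted p of 0.164.

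Col8a2 (chr4:126286793-126314330, + strand, 5 exon blocks) had 0 and 2 counts in 4T1 medium, 22 and 20 in 67NR medium and 16 and 16 in control medium. Its summed count in 4T1 medium was 0.0617 times that in control medium (95% counting interval 0.00716 to 0.242) and 0.0605 times that in 67NR medium (0.00710 to 0.233), at the scaled library totals. These intervals cover counting error only. Col8a2 passed the filter on low counts only through the 67NR and control libraries, so the intervals are a description and not a test. Per kb it reached at most 0.00547 of Col8a1, in the second control library. Type IV chains that are partners were closer to each other: Col4a2 stood at 0.757 of Col4a1 per kb on average in 4T1 medium, 0.641 in 67NR medium and 0.610 in control medium. The ratio of Col6a2 to Col6a1 spanned 0.330 to 0.389 over the 6 libraries, and that of Col4a6 to Col4a5 0.188 to 0.232. The ratio of Col5a2 to Col5a1 was 0.878 and 0.826 in 4T1 medium, 0.709 and 0.693 in 67NR medium and 1.03 and 1.03 in control medium. Why Col1a2, Col6a3 and Col8a2 were counted so low was not tested, and the sources used here do not give the counting settings.

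**Figure D3:**
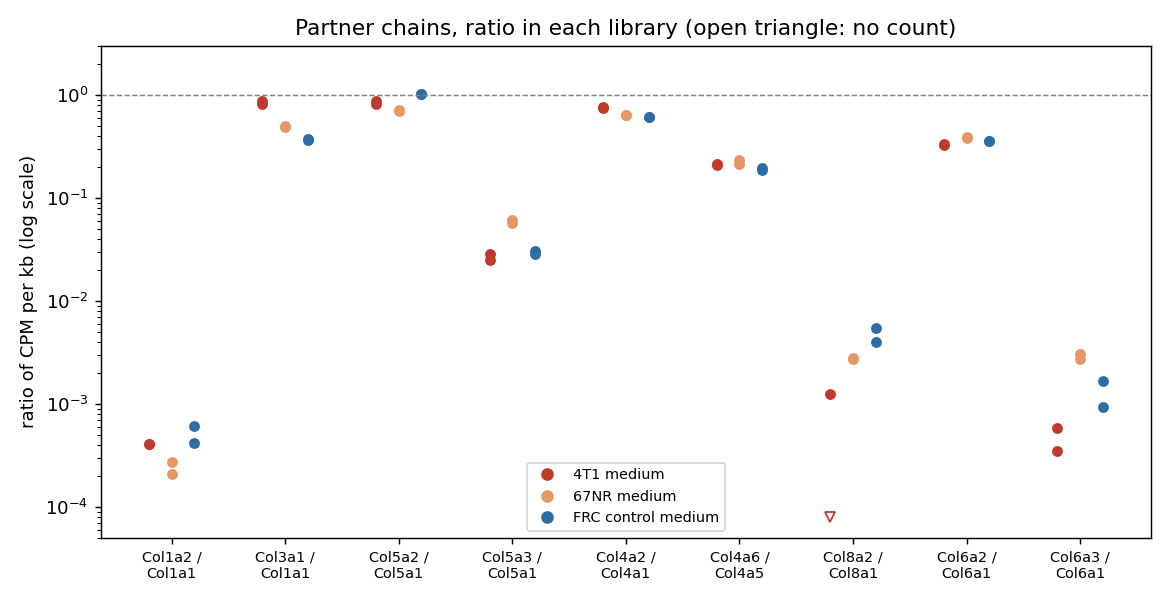
Ratio of CPM per kb between chains of the same or an associated trimer or fibril in each library (y axis, log scale, dashed line at 1), with colours for the media and an open triangle for no count. Col1a2, Col8a2 and Col6a3 lie below 0.01 of their partner in every library, and the other pairs lie above 0.02.

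Among the fibrillar chains, Col1a1 and Col3a1 parted ways in 4T1 medium. Col1a1, the main chain of type I collagen (chr11:94936224-94953042, + strand), stood at 6717 and 7104 CPM in 4T1 medium, 15613 and 14826 CPM in 67NR medium and 14099 and 13536 CPM in control medium. Both 4T1 libraries lay far below the other 4, which were close together. Col1a1 was 2.00-fold lower in 4T1 than in control medium in that it fell by 1.00 ± 0.07 on the log2 scale (adjusted p 1.02e-07 by edgeR's quasi-likelihood test), and lower in 4T1 than in 67NR medium (-1.14 ± 0.07, adjusted p 2.62e-08). In 67NR against control medium it did not pass (0.14 ± 0.07, adjusted p 0.142), although it passed without the filter on low counts (adjusted p 0.0186) and in a fit of those 4 libraries alone (adjusted p 0.0387). Col3a1, which forms the homotrimers of type III collagen (chr1:45311538-45349706, + strand), stood at 8709 and 8735 CPM in 4T1 medium, 11601 and 10966 CPM in 67NR medium and 7940.4 and 7469.8 CPM in control medium. It was highest in both 67NR libraries and lowest in both control libraries. The rise in 67NR against control medium was 0.55 ± 0.07 on the log2 scale (adjusted p 4.87e-05), and 4T1 was below 67NR medium (-0.37 ± 0.07, adjusted p 0.000510). The 1.13-fold rise in 4T1 against control medium (0.18 ± 0.07, adjusted p 0.0472) lost its call with DESeq2 size factors (adjusted p 0.0670), in a fit of the 4 libraries compared (0.131) and without either control library (0.0681 and 0.228). The ratio of Col3a1 to Col1a1 per kb was 0.867 and 0.822 in 4T1 medium, 0.497 and 0.495 in 67NR medium and 0.377 and 0.369 in control medium. With the longest transcript as the length it was 1.38 and 1.31 in 4T1 medium, so which of the 2 chains was the higher in 4T1 medium depends on that choice.

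Type V and type XI chains co-assemble with types I and II and set fibril diameter. Col5a1 stood at 1309 and 1401 CPM in 4T1 medium, 1773 and 1774 CPM in 67NR medium and 1640.05 and 1574 CPM in control medium. Col5a2 (chr1:45374321-45503282, - strand, tail to tail with Col3a1 and 24614 bases from it) stood at 1299 and 1308 CPM in 4T1 medium, 1420.05 and 1389 CPM in 67NR medium and 1909.7 and 1839 CPM in control medium. Col5a3 stood at 26.5 and 32.5 CPM in 4T1 medium, 87.5 and 81.0 CPM in 67NR medium and 37.5 and 38.3 CPM in control medium. Col5a1 and Col5a3 therefore took the same order, 4T1 below control below 67NR medium, whereas Col5a2 was highest in control medium. Col5a2 was lower in 4T1 than in control medium (log2 fold change -0.52 ± 0.06, adjusted p 2.09e-05, edgeR) and lower in 67NR than in control medium (-0.42 ± 0.06, adjusted p 0.000262). Col5a3 was higher in 67NR than in control medium (1.15 ± 0.09, adjusted p 1.14e-06) and lower in 4T1 than in 67NR medium (-1.51 ± 0.09, adjusted p 3.80e-08). Against control medium, Col5a1 (-0.25 ± 0.06, adjusted p 0.00884) and Col5a3 (-0.36 ± 0.10, adjusted p 0.0122) were lower in 4T1 medium, but without the first control library their adjusted p were 0.0605 and 0.0529. Col5a3 also missed the threshold without the second control library (0.0669) and the first 4T1 library (0.0502). Col5a1 was lower in 4T1 than in 67NR medium (-0.39 ± 0.06, adjusted p 0.000297), and in 67NR against control medium it did not pass (0.14 ± 0.06, adjusted p 0.122), except in a fit of those 4 libraries alone (adjusted p 0.0305).

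Col11a1 and Col11a2, the minor chains of cartilage fibrils, moved in opposite directions in 4T1 medium. Col11a1 stood at 216 and 236 CPM in 4T1 medium, 508 and 539 CPM in 67NR medium and 601 and 616 CPM in control medium. Col11a2 stood at 8.65 and 7.90 CPM in 4T1 medium, 5.05 and 6.37 CPM in 67NR medium and 4.15 and 3.86 CPM in control medium. The libraries of each medium did not overlap with those of the others for either chain. In 4T1 against control medium Col11a1 fell by 1.43 ± 0.07 on the log2 scale (adjusted p 4.02e-09, edgeR) and Col11a2 rose by 1.03 ± 0.17 (adjusted p 0.000439). Col11a1 was also lower in 4T1 than in 67NR medium (-1.21 ± 0.07, adjusted p 1.64e-08), whereas its call in 67NR against control medium (-0.22 ± 0.07, adjusted p 0.0291) was lost without any 1 of those 4 libraries (adjusted p 0.0885 to 0.272). Col11a2 did not pass in 67NR against control medium (0.50 ± 0.18, adjusted p 0.0537), though it did in 4 of the alternatives (adjusted p 0.0376 to 0.0496). It was higher in 4T1 than in 67NR medium (0.53 ± 0.16, adjusted p 0.0156), a call lost in DESeq2 (0.135) and without the first 4T1 library (0.0648) or the first 67NR library (0.167).

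Col2a1, the chain of type II collagen in cartilage, stood at 23.7 and 26.0 CPM in 4T1 medium, 14.5 and 14.9 CPM in 67NR medium and 45.1 and 50.2 CPM in control medium. It was lowest in both 67NR libraries and highest in both control libraries. The change in 67NR against control medium (-1.69 ± 0.09, adjusted p 6.57e-08, edgeR) exceeded that in 4T1 against control medium (-0.93 ± 0.09, adjusted p 3.32e-06), and 4T1 was above 67NR medium (0.76 ± 0.10, adjusted p 3.62e-05). Col27a1, a fibrillar chain of developing cartilage, had 16 and 20 counts in 4T1 medium, 135 and 103 in 67NR medium and 49 and 25 in control medium. It was higher in 67NR than in control medium (1.33 ± 0.22, adjusted p 0.000682) and lower in 4T1 than in 67NR medium (-2.37 ± 0.25, adjusted p 6.83e-06). Its fall in 4T1 against control medium (-1.04 ± 0.30, adjusted p 0.0159) was lost without the first control library (-0.78, adjusted p 0.172), without the second 4T1 library (adjusted p 0.0537) and in DESeq2 (0.0630). The remaining fibrillar chain, Col24a1, had 8 counts in all. Types II, XI and XXVII are best known from cartilage, so the 10 cartilage and bone markers listed are given here. Their summed level was 114 and 116 CPM in 4T1 medium, 106 and 106 CPM in 67NR medium and 72.3 and 83.8 CPM in control medium. Most of it was Sox9, and Acan and Matn1 were at 0 in all libraries. The 2 tested were Sox9 and Alpl, and Sox9 was higher in 4T1 than in control medium (0.47 ± 0.08, adjusted p 0.000322, edgeR). Alpl had 89 and 148 counts in 4T1 medium, 2 and 0 in 67NR medium and 1 and 1 in control medium. It passed the filter on low counts only through the 4T1 libraries, so no p is given for it. The part of these markers in the changes of the chains was not tested. Of the 10 fibrillar chains tested, 2 were higher and 8 lower in 4T1 against control medium, 3 were higher and 4 lower in 67NR against control medium, and 2 were higher and 6 lower in 4T1 against 67NR medium, where 39.1%, 27.6% and 43.4% of all genes were called.

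**Figure D4:**
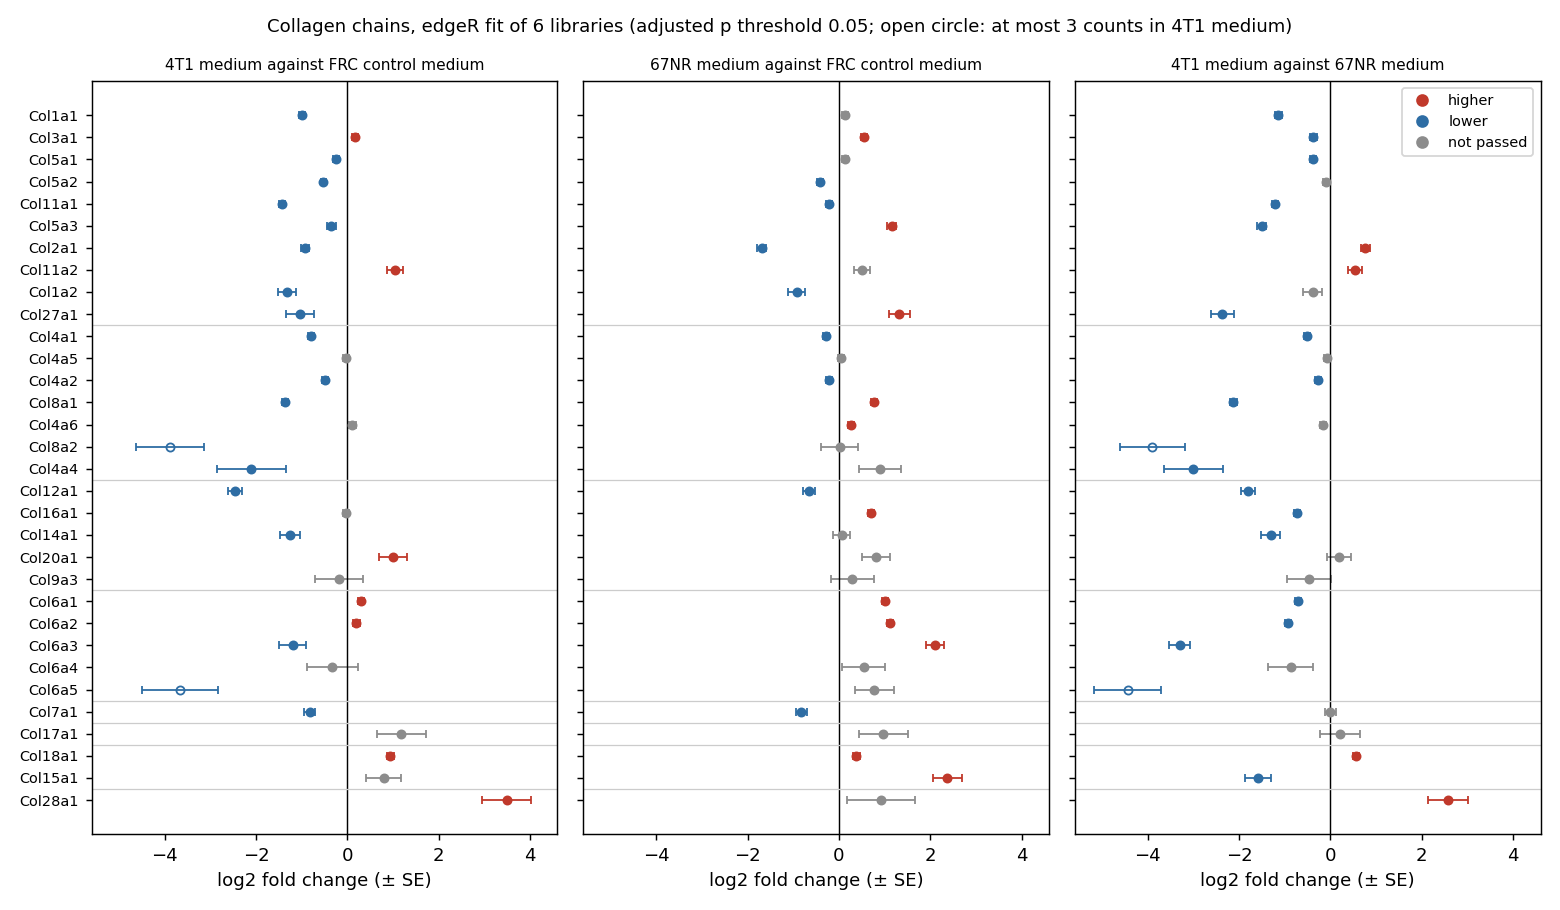
Log2 fold change with its standard error (x axis) of the 32 tested chains, in rows by class, for 4T1 against control, 67NR against control and 4T1 against 67NR medium (left to right). Red, blue and grey mark higher, lower and not passed; most chains of the left and right panels are blue, and open circles mark fits that rest on at most 3 counts in 4T1 medium. Col4a4, Col8a2, Col6a5 and Col28a1 passed the filter only through the media in which they were higher, so their points are a description.

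In the network class, the main basement membrane pair Col4a1 and Col4a2 was lowest in 4T1 medium. The genes lie head to head on chromosome 8 and share 22 bases at their starts (Col4a1 chr8:11198423-11312826, - strand, and Col4a2 chr8:11312805-11449287, + strand), and only counting by strand would keep reads there apart. Col4a1 stood at 724 and 785 CPM in 4T1 medium, 1082 and 1075 CPM in 67NR medium and 1347 and 1284 CPM in control medium. Col4a2 stood at 490.1 and 523 CPM in 4T1 medium, 611 and 616 CPM in 67NR medium and 724 and 699 CPM in control medium. Both chains had the same order, 4T1 below 67NR below control medium, with no overlap. Col4a1 fell by 0.80 ± 0.07 and Col4a2 by 0.49 ± 0.06 on the log2 scale in 4T1 against control medium (adjusted p 7.65e-07 and 4.80e-05, edgeR), and both were lower in 4T1 than in 67NR medium (-0.52 ± 0.07, adjusted p 3.37e-05, and -0.28 ± 0.06, adjusted p 0.00318). In 67NR against control medium Col4a1 (-0.29 ± 0.07, adjusted p 0.00586) and Col4a2 (-0.21 ± 0.06, adjusted p 0.0228) were lower. Without either 67NR library or the first control library, and for Col4a2 also without the second, those adjusted p were 0.0614 to 0.0724 for Col4a1 and 0.0725 to 0.179 for Col4a2.

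The second head to head pair, Col4a5 and Col4a6, lies on chromosome X with 1308 bases between the genes and encodes chains of a minor type IV network. Col4a5 stood at 627 and 704 CPM in 4T1 medium, 709 and 691 CPM in 67NR medium and 690.2 and 664 CPM in control medium. Col4a6 stood at 161 and 173 CPM in 4T1 medium, 182 and 190.5 CPM in 67NR medium and 161 and 148 CPM in control medium. The media overlapped for Col4a5, which passed in none of the 3 comparisons (log2 fold changes -0.02, 0.05 and -0.07). Col4a6 was higher in 67NR than in control medium (0.27 ± 0.07, adjusted p 0.0121, edgeR), a call lost without either 67NR library or the second control library (adjusted p 0.0588 to 0.149), and it did not pass in 4T1 against control medium (0.11 ± 0.07, adjusted p 0.241). Without the second 4T1 library, both chains passed as lower in 4T1 than in 67NR medium (adjusted p 0.0423 for Col4a5 and 0.0181 for Col4a6).

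Col8a1, a short-chain collagen of vessel walls and of Descemet's membrane in the eye (chr16:57624258-57754737, - strand), separated the media more than the type IV chains of at least 5 CPM. It stood at 137 and 153 CPM in 4T1 medium, 642 and 626 CPM in 67NR medium and 367 and 379.6 CPM in control medium. The control libraries lay between those of the tumour media. It was 2.57-fold lower in 4T1 than in control medium (log2 fold change -1.36 ± 0.07, adjusted p 7.25e-09, edgeR), higher in 67NR than in control medium (0.76 ± 0.07, adjusted p 3.14e-06) and lower in 4T1 than in 67NR medium (-2.13 ± 0.07, adjusted p 1.14e-10). Col4a4, a chain of the kidney's basement membrane, had 3 and 2 counts in 4T1 medium, 16 and 37 in 67NR medium and 13 and 9 in control medium. Its summed count in 4T1 medium was 0.120 times that in 67NR medium (95% counting interval 0.0374 to 0.298) and 0.224 times that in control medium (0.0664 to 0.607). Col4a4 and Col8a2 passed the filter on low counts only through the 67NR and control libraries, where they were higher. No p is given for them, and their intervals are a description. Its neighbour Col4a3, 71 bases away head to head, had 20 counts in all, and Col10a1, a marker of hypertrophic cartilage, had 5. Of 7 network chains tested, none was higher and 5 were lower in 4T1 against control medium, 2 were higher and 2 lower in 67NR against control medium, and none was higher and 5 were lower in 4T1 against 67NR medium (edgeR; Col4a5 and Col4a6 are the 2 that did not pass in the first and last). The 5 lower chains include Col4a4 and Col8a2 both times, and 39.1%, 27.6% and 43.4% of all genes were called in the 3 comparisons.

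The FACIT class held the most lowered abundant chain in 4T1 medium. Col12a1, which bridges type I fibrils and is known from tissues under load (chr9:79598991-79718831, - strand), stood at 195 and 270.1 CPM in 4T1 medium, 694 and 930.5 CPM in 67NR medium and 1237 and 1318 CPM in control medium. The 3 media did not overlap, and in proportion to their level the libraries of each tumour medium differed from each other more than the control libraries did. Col12a1 was 5.49-fold lower in 4T1 than in control medium (log2 fold change -2.46 ± 0.15, adjusted p 3.38e-08, edgeR), and leaving out a library or changing the method kept it between -2.72 and -2.25. It was lower in 4T1 than in 67NR medium (-1.80 ± 0.14, adjusted p 4.64e-07) and lower in 67NR than in control medium (-0.65 ± 0.14, adjusted p 0.00374), the last without a call in DESeq2 (0.05001) and without the first 67NR library (0.0572). Col14a1, a related fibril-binding chain, stood at 2.23 and 4.14 CPM in 4T1 medium, 7.83 and 8.37 CPM in 67NR medium and 7.58 and 8.03 CPM in control medium. It was lower in 4T1 than in control medium (-1.25 ± 0.22, adjusted p 0.000595) and than in 67NR medium (-1.31 ± 0.21, adjusted p 0.000248), and 67NR overlapped with control medium (0.06 ± 0.18, adjusted p 0.853).

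Col16a1, a FACIT of skin and cartilage matrix, stood at 169 and 169.7 CPM in 4T1 medium, 292 and 268 CPM in 67NR medium and 176 and 167 CPM in control medium. Here only the 67NR libraries stood apart: Col16a1 was higher in 67NR than in control medium (0.71 ± 0.07, adjusted p 5.46e-06, edgeR), lower in 4T1 than in 67NR medium (-0.73 ± 0.07, adjusted p 1.53e-06) and did not pass in 4T1 against control medium (-0.02 ± 0.07, adjusted p 0.843). Col20a1, with 14 to 48 counts per library, was higher in 4T1 than in control medium (1.00 ± 0.31, adjusted p 0.0216), a call lost in DESeq2 (0.133) and without the first 4T1 library (0.0704), the first control library (0.0830) or the second (0.0953). It did not pass in 67NR against control medium (0.82 ± 0.31, adjusted p 0.0641) or in 4T1 against 67NR medium (0.18 ± 0.27, adjusted p 0.623). The cartilage chains Col9a1, Col9a2 and Col9a3 held 2, 13 and 66 counts in all, and Col9a3, the 1 tested, passed in no comparison. Of 5 FACITs tested, 1 was higher and 2 lower in 4T1 against control medium, 1 was higher and 1 lower in 67NR against control medium, and none was higher and 3 were lower in 4T1 against 67NR medium, beside 39.1%, 27.6% and 43.4% of all genes called.

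Among the beaded filament chains, Col6a1, Col6a2 and Col6a3 were higher in 67NR than in control medium. Col6a1 (chr10:76708792-76726168, - strand) stood at 1716 and 1821 CPM in 4T1 medium, 2958 and 2832 CPM in 67NR medium and 1471 and 1394 CPM in control medium. Col6a2, which follows it on the same strand 85161 bases away, stood at 1089 and 1142 CPM in 4T1 medium, 2185 and 2057 CPM in 67NR medium and 1003 and 939 CPM in control medium. Both were highest in the 67NR libraries, and the 4T1 libraries lay between those and the control libraries. In 67NR against control medium Col6a1 rose 2.02-fold (log2 fold change 1.01 ± 0.07, adjusted p 2.43e-07, edgeR) and Col6a2 2.18-fold (1.13 ± 0.07, adjusted p 1.23e-07). Both were lower in 4T1 than in 67NR medium (-0.71 ± 0.07, adjusted p 1.79e-06, and -0.93 ± 0.07, adjusted p 1.90e-07). In 4T1 against control medium Col6a1 was higher (0.30 ± 0.07, adjusted p 0.00265). The rise of Col6a2 there (0.20 ± 0.07, adjusted p 0.0312) lost its call in a fit of the 4 libraries compared (0.0714) and without the second 4T1 library (0.0721), the first control library (0.0610) or the second (0.207).

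The other type VI chains, which can take the place of Col6a3, were near the floor. Col6a5 had 0 and 2 counts in 4T1 medium, 26 and 35 in 67NR medium and 21 and 7 in control medium. Its summed count in 4T1 medium was 0.0417 times that in 67NR medium (95% counting interval 0.00494 to 0.157) and 0.0705 times that in control medium (0.00814 to 0.280). It passed the filter on low counts in no 4T1 library, so no p is given for it and its intervals are a description. Col6a4 had 5 to 24 counts per library and passed in no comparison, and Col6a6 had 7 counts in all. The 3 genes form a cluster on chromosome 9. Of 5 beaded filament chains tested, 2 were higher and 2 lower in 4T1 against control medium, 3 were higher and none lower in 67NR against control medium, and none was higher and 4 were lower in 4T1 against 67NR medium, with Col6a5 among the lower ones both times. Of all genes 39.1%, 27.6% and 43.4% were called in these comparisons.

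Outside these classes, Col7a1, the chain of the fibrils that anchor epidermis to dermis, stood at 9.06 and 9.15 CPM in 4T1 medium, 9.22 and 9.05 CPM in 67NR medium and 16.7 and 15.5 CPM in control medium. It was lower than in control medium both in 4T1 (log2 fold change -0.83 ± 0.12, adjusted p 0.000100, edgeR) and in 67NR medium (-0.82 ± 0.11, adjusted p 0.000139), and the tumour media overlapped (adjusted p 0.980). Col18a1, a basement membrane multiplexin whose cut end is endostatin (chr10:77052178-77166548, - strand), stood at 86.2 and 88.9 CPM in 4T1 medium, 62.6 and 56.4 CPM in 67NR medium and 46.7 and 44.3 CPM in control medium. It was highest in both 4T1 libraries: higher than in control medium (0.94 ± 0.08, adjusted p 7.14e-07) and than in 67NR medium (0.56 ± 0.07, adjusted p 4.94e-05). It was also higher in 67NR than in control medium (0.39 ± 0.08, adjusted p 0.00260), though not without the first 67NR library (adjusted p 0.0603).

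Col15a1, the second multiplexin, had 27 and 48 counts in 4T1 medium, 174 and 111 in 67NR medium and 17 and 25 in control medium. It was higher in 67NR than in control medium (2.37 ± 0.32, adjusted p 0.000116, edgeR) and lower in 4T1 than in 67NR medium (-1.58 ± 0.28, adjusted p 0.000539). In 4T1 against control medium it did not pass (0.79 ± 0.39, adjusted p 0.127), but it did without the filter (0.0260) and without the second control library (0.0489). Col28a1, a chain with von Willebrand factor domains related to type VI, had 20 and 28 counts in 4T1 medium, 5 and 5 in 67NR medium and 3 and 1 in control medium. Its summed count in 4T1 medium was 11.8 times that in control medium (95% counting interval 4.34 to 45.2). It passed the filter on low counts only through the 4T1 libraries, so no p is given for it and its interval is a description. The transmembrane chain Col17a1 had 4 to 14 counts per library and passed in no comparison.

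Of the chains called in both tumour media against the same control libraries, 4 were called in opposite directions and the rest in the same direction. Of all genes tested, 39.1% were called in 4T1 and 27.6% in 67NR against control medium. How many genes were called in opposite directions was not counted, so the 4 chains are a description. Other chains, such as Col1a1, also differed in sign but were not called in both comparisons. Log2 fold changes were -0.36 in 4T1 medium and 1.15 in 67NR medium for Col5a3, -1.04 in 4T1 medium and 1.33 in 67NR medium for Col27a1, -1.36 in 4T1 medium and 0.76 in 67NR medium for Col8a1, and -1.19 in 4T1 medium and 2.11 in 67NR medium for Col6a3. Without the first control library the fall in 4T1 against control medium was -0.38 for Col5a3, -0.78 for Col27a1 and -0.64 for Col6a3. These 3 falls lost their calls there, so of the 4 chains the opposite calls held without it for Col8a1 alone. The direct comparison of 4T1 with 67NR medium passed as lower for all 4. Col18a1 was the 1 chain that passed as higher in all 3 comparisons, and Col4a5, Col9a3, Col6a4 and Col17a1 passed in none.

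Genes that act on collagen were counted from lists, and over all genes tested 39.1% were called in 4T1 against control medium (19.9% higher, 19.2% lower), 27.6% in 67NR against control medium and 43.4% in 4T1 against 67NR medium. Of 19 tested genes for procollagen folding and hydroxylation, 5 were higher and 9 lower in 4T1 against control medium, 7 were higher and 2 lower in 67NR against control medium, and 1 was higher and 12 lower in 4T1 against 67NR medium. P4ha1, the catalytic subunit of a prolyl 4-hydroxylase, averaged 274 ± 7.78 CPM in 4T1 medium and 443 ± 10.98 CPM in control medium (SD, n = 2 each), a log2 fold change of -0.69 ± 0.06. Fkbp14, a prolyl isomerase of the endoplasmic reticulum, changed by -0.58 ± 0.07. Of 12 tested genes for propeptide removal and crosslinking, 3 were higher and 6 lower in 4T1 against control medium, 6 were higher and 3 lower in 67NR against control medium, and 4 were higher and 6 lower in 4T1 against 67NR medium. Pcolce2, an enhancer of procollagen cleavage, was lower in 4T1 than in control medium (-1.87 ± 0.12), and Tll1, a procollagen C-proteinase, was higher (1.44 ± 0.09). All of these named genes passed edgeR's test, with adjusted p of 3.48e-05 or less.

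Of 13 fibril-binding matrix genes tested, 3 were higher and 5 lower in 4T1 against control medium, 10 were higher and none lower in 67NR against control medium, and 2 were higher and 9 lower in 4T1 against 67NR medium. Among them Omd and Aspn passed the filter on low counts only through the 67NR and control libraries, so these counts are a description. The proteoglycans fibromodulin and decorin, which both bind collagen fibrils, went opposite ways in 4T1 medium. Fmod averaged 28.7 ± 1.503 CPM in 4T1 medium and 224 ± 4.07 CPM in control medium (SD, n = 2 each), 7.83-fold lower (adjusted p 1.10e-11, edgeR), and Dcn 190.3 ± 7.05 CPM in 4T1 medium and 48.6 ± 0.44 CPM in control medium, 3.92-fold higher (adjusted p 1.72e-10, edgeR). Of 13 basement membrane partners tested, 3 were higher and 5 lower in 4T1 against control medium, among them the laminin chain gene Lama4 (log2 fold change 1.82 ± 0.09) and the nidogen gene Nid2 (-1.58 ± 0.07). In 67NR against control medium 5 of them were higher and 2 lower, and in 4T1 against 67NR medium 5 were higher and 6 lower. Here Lama1 passed the filter only through the 4T1 libraries and Lama2 only through the 67NR libraries. Lamb3 passed it only through the 67NR and control libraries, so the counts of these partners are also a description. The shares of all genes called were 39.1%, 27.6% and 43.4% in the 3 comparisons.

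Of 7 tested collagen receptors, 1 was higher and 5 lower in 4T1 against control medium, where the collagen-binding integrin chains Itga1 (log2 fold change -0.85 ± 0.16) and Itga11 (-0.69 ± 0.09) were lower. The counts were 1 higher and none lower in 67NR against control medium and 1 higher and 4 lower in 4T1 against 67NR medium. Of 8 tested collagen-degrading proteases, 3 were higher and none lower in 4T1 against control medium, including the membrane-type protease Mmp15 (1.00 ± 0.16), and this share of called genes is near the 39.1% over all genes. They were 6 higher and none lower in 67NR against control medium, and 2 higher and 5 lower in 4T1 against 67NR medium. Mmp3 and Mmp13 passed the filter on low counts only through the 4T1 libraries, and Mmp9 and Fap only through the 67NR libraries. The counts of proteases are therefore a description. Of 16 regulators of collagen transcription tested, 6 were higher and 4 lower in 4T1 against control medium, with Cebpb, an inflammatory transcription factor, at 2.31 ± 0.08 and the growth factor gene Tgfb3 at -2.14 ± 0.08. They were 6 higher and 1 lower in 67NR against control medium, and 4 higher and 5 lower in 4T1 against 67NR medium. These are edgeR calls of the same fit, in which 27.6% of all genes were called in 67NR against control medium and 43.4% in 4T1 against 67NR medium, and the lists' medians lay between -0.51 and 0.56 in 4T1 against control medium, where the median of all genes tested was 0.01.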

How the data were processed

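Poly(A) RNA of 6 samples was made into directional libraries from 500 ng of total RNA and sequenced on an Illumina NextSeq500, per the labels' protocols. The deposited values are raw counts, whole numbers of reads for each gene symbol. Per the submitters' processing notes, Subread, the mm10 build and DESeq2 1.32.0 were used. The sources used here give neither the strand setting nor the treatment of reads that match several genes, which leaves overlapping genes and near-identical copies uncertain.

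The unfiltered table was used (55367 symbols, 26346 with a count). The filterByExpr filter of edgeR 4.0.16, with a minimum count of 10 and a minimum total of 15, left 15055 genes, scaled by trimmed mean of M-values (TMM). A quasi-likelihood fit of all 6 libraries (3 residual and 9.62 prior degrees of freedom, biological coefficient of variation 5.81%, prior count 0.125) gave log2 fold changes and Benjamini-Hochberg adjusted p, with a threshold of 0.05. Values after ± are standard errors of log2 fold changes, or standard deviations where so named. CPM use the TMM-scaled totals of tested genes. Levels per kb use the merged exons of GENCODE M21 (GRCm38, the assembly of mm10), which held 53292 of the symbols. The code was tested on simulated counts. R 4.3.3 and, for figures, Python 3.11.15 with matplotlib 3.10.9 were used.

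The chains, classes and lists were chosen with earlier results of these data known. Values by library are given for chains with a mean of at least 5 CPM. Lower chains are named with their counts so that every member is accounted for. For each list other than the cell type markers at most 2 called genes are named. These are the genes that changed most in 4T1 against control medium among those that reach 10 CPM in either group. Alternatives tried were scaling by DESeq2 size factors or library totals, no filter, the genes of the authors' filtered table, a replicate block, each library left out, fits of the 2 groups compared, the DESeq2 1.42.0 Wald test and the longest transcript as length.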

Additional observations from a re-analysis of the deposited data

How the results depend on the processing

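Over the 96 combinations of tested chain and comparison, the alternatives gave 1039 values, of which 981 kept direction and side of the threshold, 46 lost the call, 12 gained one and 0 reversed. Among counts of called chains, those that moved by more than 1.5 times came from leaving out a library, which leaves 1 library in a group. They were the higher chains in 4T1 against control medium and the lower chains in 67NR against control medium. The count of all called chains in 4T1 against control medium also moved that far without the first control library. Fewer of all genes were called in these fits as well. With the replicate number as a block, 25, 19 and 23 chains were called in 4T1 against control, 67NR against control and 4T1 against 67NR medium, the same numbers as without it. Over all genes tested, the deviations of same-numbered libraries from their medium's mean correlated at 0.0685, 0.00508 and -0.0406. Such correlations cannot tell whether the numbers mark a pairing or a shared batch. The summed RNA quality genes were lower in the first library of every medium (17310 against 19507 CPM in 4T1, 16013 against 18785 CPM in 67NR and 10247 against 14679 CPM in control medium). The DESeq2 Wald test called 22, 18 and 22 chains. With the longest transcript as length, the mean ratio over the 6 libraries was 0.000814 for Col1a2 to Col1a1 (0.000388 with all exons), 0.910 for Col3a1 to Col1a1 (0.571), 1.24 for Col5a2 to Col5a1 (0.862), 0.244 for Col4a6 to Col4a5 (0.209) and 0.568 for Col6a2 to Col6a1 (0.358). These ratios differ by the lengths alone. Depth limits chains with few counts, such as Col4a4, Col8a2 and Col6a5, with 0 to 3 counts in each 4T1 library, and Col28a1, with 3 and 1 counts in control medium.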

Other observations

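Proteins with collagen-like domains that the symbol rule leaves out were also counted. Of 34 such genes, 12 were tested, of which 3 were higher and 6 lower in 4T1 against control medium, 8 were higher and 1 lower in 67NR against control medium, and none was higher and 8 were lower in 4T1 against 67NR medium, by edgeR's quasi-likelihood test at an adjusted p under 0.05, where 39.1%, 27.6% and 43.4% of all genes tested were called. Cthrc1, a secreted protein with a short collagen repeat, averaged 6.45 ± 0.13 CPM in 4T1 medium and 55.9 ± 3.09 CPM in control medium (SD, n = 2 each). It was 8.63-fold lower in 4T1 medium, with an adjusted p of 7.40e-11 in edgeR, and the libraries did not overlap. Scara3, a scavenger receptor family member, averaged 44.8 ± 1.00 CPM in 4T1 medium and 28.2 ± 1.69 CPM in control medium, 1.58-fold higher (adjusted p 3.96e-05, edgeR).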
